A study of Homo sapiens with 2 samples.

Results

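Genes that are switched on by ERK signalling, 10 in number and most of them brakes on it, were followed in S100A7-transfected and vector-transfected MDA-MB 231 cells. They were taken from a fixed list of gene symbols: the phosphatase genes DUSP4, DUSP5 and DUSP6, the Sprouty genes SPRY2 and SPRY4, the Sprouty-related genes SPRED1 and SPRED2, the ETS transcription factor genes ETV4 and ETV5, and PHLDA1. Every probe set annotated to 1 of them alone was used, which gave 28 probe sets for 10 of the 19775 genes named on the array. MDA-MB 231 is a human breast cancer line that lacks the estrogen receptor, invades readily and is known to carry activating mutations in a RAS and a RAF gene. Total RNA from 1 culture of stable S100A7 transfectants, carrying the S100A7 coding sequence in the plasmid pIRES2-EGFP, was set against total RNA from 1 culture of stable transfectants carrying pIRES2-EGFP without it. The labels do not say whether either line is 1 clone or a pool, and they state the confluence at harvest for the vector cells and not for the S100A7 cells. Both were grown in medium with 10% fetal bovine serum, and 2 µg of RNA went onto each array.

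In the ERK pathway, receptor signals pass through RAS, RAF and MEK to the kinase ERK, which enters the nucleus and activates ETS and other transcription factors. Among the genes it induces are its own brakes: dual-specificity phosphatases that remove the activating phosphates from ERK, Sprouty proteins that act between receptors and RAF, and SPRED proteins that bring the RAS-inactivating protein neurofibromin to the membrane. Because their transcripts follow pathway activity, such genes are widely read as a measure of ERK output in tumours with mutant RAS or RAF. The series asks which genes S100A7 regulates, and these 10 give its comparison a readout of that output.

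The values are MAS5 intensities on a linear scale, 1 per probe set, and log2 ratios are S100A7 cells over vector cells. The floor below which a value was not read was each array's median over its non-control probe sets, 68.99 for S100A7 cells and 71.04 for vector cells. A probe set that reached the floor on at least 1 array was counted as measured, and each gene's value was that of its brightest measured probe set. There was 1 array per group, so no difference could be tested against the spread between cultures and no p-value is given. The precision is limited by the number of arrays. The S100A7 probe set read 13232 in S100A7 cells and 11.99 in vector cells, at least 186-fold above the vector floor. The mesenchymal markers VIM (35575 in S100A7 cells, 38087 in vector cells) and CD44 (12481 in S100A7 cells, 11465 in vector cells) were high, as were CAV1 and ANXA1, with EGFR also above the floor, and ESR1, PGR, CDH1 and FOXA1 were below the floor on both arrays. GATA3 (752 in S100A7 cells, 719.7 in vector cells) and EPCAM (513 in S100A7 cells, 544 in vector cells), listed as markers the line lacks, were above it. Of 8 blood, endothelial and fibroblast markers, 6 were below the floor on both arrays, while COL1A1 read 487 in S100A7 cells and 842 in vector cells on the brightest of 3 probe sets, whose log2 ratios ran from -0.79 to 0.76, and PECAM1 168 in S100A7 cells and 132 in vector cells. In RNA from a whole culture, fewer expressing cells and less RNA per cell cannot be told apart.

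All 10 genes were measured, with 26 of their 28 probe sets reaching the floor, and all 26 were above it on both arrays. None of the 10 reached a 2-fold difference, against 4.05% of the 12688 measured genes, made up of 1.8% higher and 2.25% lower by that much. DUSP4 was the single gene at least 1.5-fold lower, where 10.0% of all genes lay, and 0 genes were at least 1.5-fold higher, against 8.12% of all genes. The log2 ratio was above 0 for 4 genes (DUSP5, ETV4, SPRY2 and PHLDA1) and below 0 for 6, while 45.8% of all measured genes were above 0 and 54.2% below it. The median of the 10 was -0.18 and that of all measured genes -0.04. The 10 genes therefore spread over both directions, from -0.75 for DUSP4 to 0.40 for DUSP5.

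**Figure D1:**
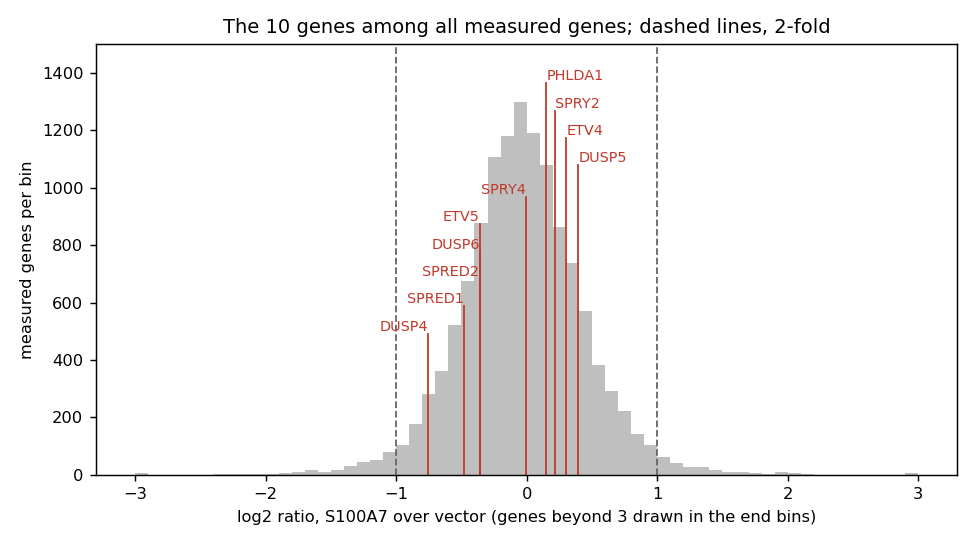
Histogram of log2 ratios (horizontal axis, S100A7 over vector) of the 12688 measured genes, in genes per bin (vertical axis), with each of the 10 genes drawn as a red line at its brightest probe set. All 10 lie between the dashed lines at 2-fold, from -0.75 for DUSP4 to 0.40 for DUSP5, and DUSP6, SPRED2 and ETV5 share nearly 1 position at -0.36.

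By probe set, 19 of the 26 were lower in S100A7 cells and 7 higher, with a median log2 ratio of -0.29. Over all measured probe sets with 1 gene, 51.5% were lower. At least 1.5-fold lower were 4 of the 26, from DUSP4, SPRED1 and PHLDA1, against 9.71% of all measured probe sets, and 0 were at least 1.5-fold higher, against 9.92%. At least 2-fold lower were 2, 1 each of SPRED1 and PHLDA1, against 2.13% of all, and 0 were at least 2-fold higher, against 2.2%. Probe sets of a gene share their transcript and are not independent of each other. Of the 7 genes with at least 2 measured probe sets, DUSP4, DUSP6, SPRED1, SPRED2 and ETV5 had all of them lower, ETV4 had both higher and PHLDA1 was split. Across the 6465 genes with at least 2 measured probe sets, 29.2% had all of them lower and 27.7% all higher. Within those genes the log2 ratios had a pooled standard deviation of 0.36, and it stands here in place of the missing replicate error only as a measure of how far probes of 1 transcript disagree.

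**Figure D2:**
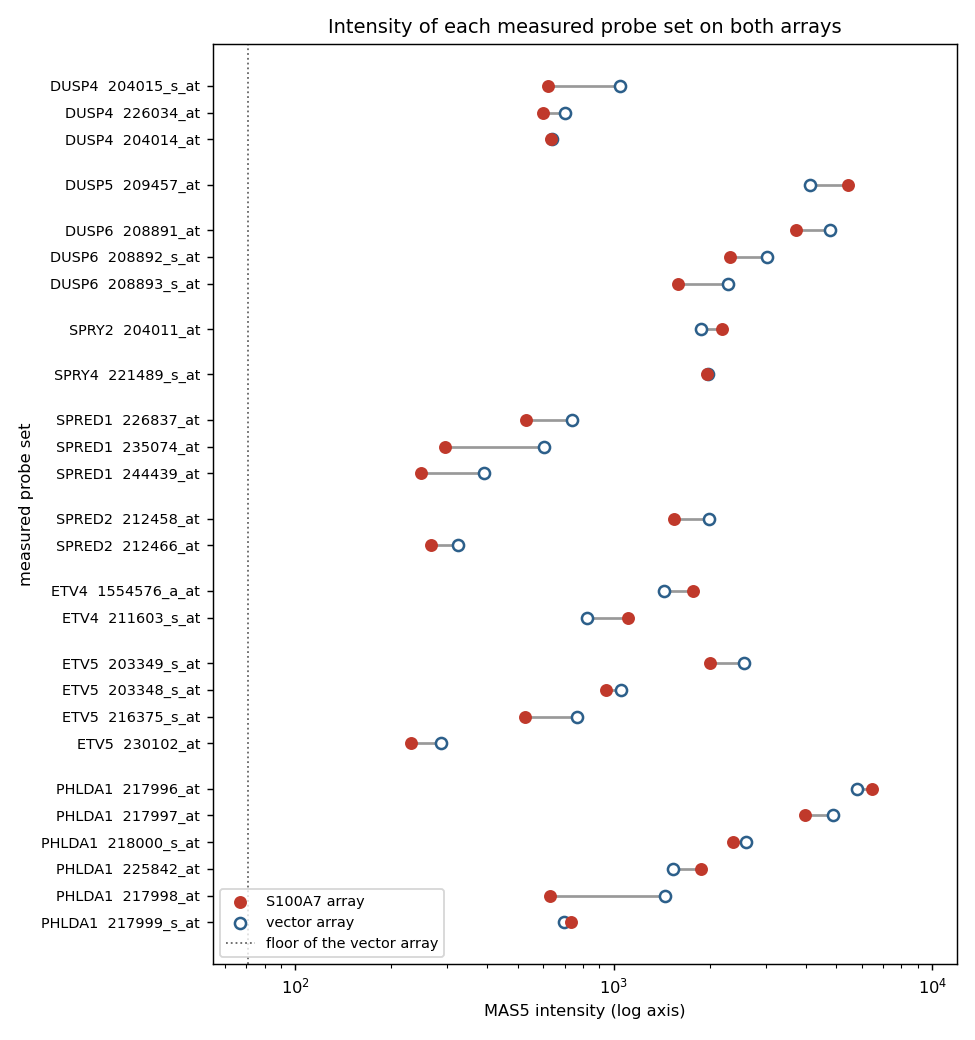
MAS5 intensity (horizontal log axis) of the 26 measured probe sets, grouped by gene, with filled red points for the S100A7 array, open blue points for the vector array and a dotted line at the vector floor of 71.04. Both points of DUSP4's 204014_at and of SPRY4's probe set coincide, while the gaps are widest for PHLDA1's 217998_at and SPRED1's 235074_at.

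The 3 phosphatase genes did not move together. DUSP6 encodes the cytoplasmic phosphatase MKP-3, which is highly selective for ERK and is a standard readout of its activity. Its brightest probe set, 208891_at, read 3731 in S100A7 cells and 4786 in vector cells, 1.28-fold lower. The second, 208892_s_at, read 2316 in S100A7 cells and 3032 in vector cells, and the third, 208893_s_at, 1589 in S100A7 cells and 2282 in vector cells. All 3 were lower by similar amounts, with log2 ratios from -0.52 to -0.36, a range of 0.16 against a median range of 0.50 over the 1715 genes with 3 measured probe sets. Of those genes, 4.84% had all 3 probe sets at -0.36 or below. With the median of its chromosomal neighbours subtracted, DUSP6 was at -0.04.

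The start of DUSP6 is shown because its probe sets were lower by the most even amounts among the genes with 3 or more, and because it was the only one of the 6 members with a RefSeq promoter window (9 windows, from 250 bases before to 50 after a start) to hold a match to the CIC octamer. CIC is a repressor that ERK signalling relieves, known for acting on ETV4, ETV5 and DUSP6. DUSP4, DUSP5, ETV4 and ETV5 were not searched. The letters searched, on both strands, were TGAATGAA, TGAATGGA, TCAATGAA and TCAATGGA, and 3.77% of the 35116 windows in the table hold at least 1 of them. The DUSP6 window (GRCh38.p14, chr12:89352452-89352751, minus strand) reads, 5′ to 3′, with its matches in capitals:

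DUSP6: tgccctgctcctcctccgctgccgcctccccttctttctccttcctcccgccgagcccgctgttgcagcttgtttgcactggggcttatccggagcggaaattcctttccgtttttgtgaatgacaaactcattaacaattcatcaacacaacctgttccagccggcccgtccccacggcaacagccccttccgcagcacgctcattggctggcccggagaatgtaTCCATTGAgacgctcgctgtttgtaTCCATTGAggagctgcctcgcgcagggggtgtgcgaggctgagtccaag

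Both matches are TCAATGGA read on the opposite strand, the first beginning 24 bases before the start and the second at base 2 of the transcript. A match is a run of letters and not a shown binding site. The CIC gene itself read 547 in S100A7 cells and 694 in vector cells, a log2 ratio of -0.34 on its 1 measured probe set.

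DUSP5 encodes a nuclear phosphatase that inactivates ERK and holds it in the nucleus. Its 1 probe set, 209457_at, read 5451 in S100A7 cells and 4140.1 in vector cells, a 1.32-fold higher value and the highest log2 ratio of the 10 genes, 0.40. Of all measured genes, 84.5% had a log2 ratio at or below it. DUSP4 encodes MKP-2, a nuclear phosphatase that acts on ERK and on the stress kinases. Its brightest probe set, 204015_s_at, read 620.4 in S100A7 cells and 1045 in vector cells, 1.68-fold lower. The other 2 differed less: 226034_at read 597 in S100A7 cells and 704 in vector cells, and 204014_at read 637 in S100A7 cells and 641 in vector cells. Of the 1715 genes with 3 measured probe sets, 24.4% had all 3 at DUSP4's weakest value of -0.009 or below. The lower value of DUSP4 thus rested on a probe set whose suffix, _s_at, means that it can match several transcripts, and without such probe sets its log2 ratio was -0.24 in place of -0.75. Probe sets of DUSP6, SPRY4, ETV4, ETV5 and PHLDA1 carry this suffix too. Without them DUSP6 was at -0.36, ETV4 at 0.30, ETV5 at -0.31 and PHLDA1 at 0.15, and SPRY4 had no value. The difference between the log2 ratios of DUSP5 and DUSP6 was 0.76, and that between DUSP4 and DUSP5 was -1.15 by the brightest probe sets.

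The Sprouty genes showed small differences. SPRY2, an inhibitor of receptor-driven RAS signalling, read 2191 in S100A7 cells and 1881 in vector cells on 204011_at, 1.16-fold higher. SPRY4, its relative, read 1964 in S100A7 cells and 1971 in vector cells on 221489_s_at, a log2 ratio of -0.005. Each had 1 probe set, so neither could be checked against a second. For scale, 59.4% of all measured genes lay at least as far from 0 as SPRY2 and 99.1% at least as far as SPRY4.

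Both SPRED genes were lower in S100A7 cells, SPRED1 by only 0.09 on the log2 scale once the median of its chromosomal neighbours was subtracted. SPRED1, which recruits neurofibromin to inactivate RAS and whose loss causes Legius syndrome, was lower on each of its 3 probe sets. On the brightest, 226837_at, it read 530.2 in S100A7 cells and 739 in vector cells, 1.39-fold lower. On 235074_at it read 296 in S100A7 cells and 603 in vector cells, 2.04-fold lower, and on 244439_at 247 in S100A7 cells and 390.5 in vector cells, 1.58-fold lower. Its weakest decrease was -0.48 on the log2 scale, and 2.74% of the 1715 genes with 3 measured probe sets had all 3 that low or lower. The brightest probe set was the weakest of the 3, and their median was -0.66. SPRED2, which acts in the same way, read 1550.5 in S100A7 cells and 1992 in vector cells on 212458_at, 1.28-fold lower, and 267 in S100A7 cells and 323 in vector cells on 212466_at, 1.21-fold lower. Its remaining probe set, 214026_s_at, read 5.69 in S100A7 cells and 5.17 in vector cells, below the floor on both arrays. Of the 3423 genes with 2 measured probe sets, 14.8% had both at SPRED2's weaker value of -0.27 or below. SPRED3, the remaining family member and not 1 of the 10, read 187 in S100A7 cells and 488 in vector cells, 2.61-fold lower on 1 probe set.

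The start windows of SPRED2 are of interest beside these values because AP-1, the complex of FOS and JUN proteins that ERK signalling feeds, has a short recognition sequence that can be looked for. One of its 2 windows held 2 matches to TGANTCA (both strands, at most 1 counted per position), a sequence present in 7.71% of the 35116 windows. TGANTCA is looser than the usual AP-1 site, TGACTCA or TGAGTCA, and 1 of the 2 matches, TGAATCA, fits only the looser form. The motif was chosen after the windows had been seen. In that window (GRCh38.p14, chr2:65366729-65367028, minus strand) the matches, in capitals, begin 6 bases before the start and at base 35 after it:

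SPRED2: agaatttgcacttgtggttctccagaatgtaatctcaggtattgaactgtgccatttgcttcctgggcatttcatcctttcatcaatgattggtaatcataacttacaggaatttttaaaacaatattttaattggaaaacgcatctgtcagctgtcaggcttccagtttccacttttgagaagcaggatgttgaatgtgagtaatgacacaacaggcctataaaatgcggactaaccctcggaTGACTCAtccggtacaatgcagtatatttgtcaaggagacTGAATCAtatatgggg

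The other SPRED2 window and the SPRED1 window held neither this sequence nor the CIC octamer. The letters CCGGAA, searched as a strict form of the ETS site, were found in 17.2% of all windows. They were in 1 of the 3 windows of SPRY2 and in that of PHLDA1. None of the windows of DUSP6, SPRY4, SPRED1 and SPRED2 held them, and shorter forms of the site were not searched. The arrays do not say which start a transcript used, and nothing about a factor follows from a window with or without such letters.

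ETV4 and ETV5, close relatives of the PEA3 group of ETS factors that ERK signalling induces and that carry out part of its programme, had log2 ratios of opposite sign, except that ETV4 was at -0.09 once the median of its chromosomal neighbours was subtracted. ETV4 read 1772 in S100A7 cells and 1435 in vector cells on 1554576_a_at, 1.24-fold higher, and 1105 in S100A7 cells and 822 in vector cells on 211603_s_at, 1.34-fold higher. ETV5 read 2001.5 in S100A7 cells and 2566 in vector cells on 203349_s_at, 1.28-fold lower. It was lower on each of its 3 other measured probe sets as well, at 942 in S100A7 cells and 1056 in vector cells on 203348_s_at, 526 in S100A7 cells and 765 in vector cells on 216375_s_at, and 231 in S100A7 cells and 286 in vector cells on 230102_at. The last, 231083_at, was below the floor on both arrays (38.3 in S100A7 cells, 30.1 in vector cells). The log2 ratios of ETV5 ran from -0.54 to -0.16 and those of ETV4 from 0.30 to 0.43, so the probe sets of the pair did not overlap, and their brightest probe sets differed by 0.66. Having all 4 probe sets at -0.16 or below was seen in 7.55% of the 781 genes with 4 measured, and having both at 0.30 or above in 10.9% of the 3423 genes with 2 measured. ETV1, the third gene of the group, read 395 in S100A7 cells and 506 in vector cells, a log2 ratio of -0.36, with its 5 measured probe sets from -0.36 to -0.07; it was chosen after its value was seen.

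PHLDA1, a pleckstrin homology-like protein whose transcript is used in signatures of MEK activity, gave no single answer. Its brightest probe set, 217996_at, read 6462 in S100A7 cells and 5819 in vector cells, 1.11-fold higher. Higher too were 225842_at at 1872 in S100A7 cells and 1530.4 in vector cells, and 217999_s_at at 736 in S100A7 cells and 695 in vector cells. Lower were 217997_at at 3977 in S100A7 cells and 4886 in vector cells, 218000_s_at at 2374 in S100A7 cells and 2595 in vector cells, and 217998_at at 632 in S100A7 cells and 1444.5 in vector cells. The value of 217998_at, 2.29-fold lower, was the largest difference of any of the 26 probe sets, and the other 5 lay between -0.30 and 0.29 on the log2 scale. The range over the 6 was 1.48, and 10.5% of the 133 genes with 6 measured probe sets had a range at least as wide. The files do not say which part of the transcript each probe set reads.

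**Figure D3:**
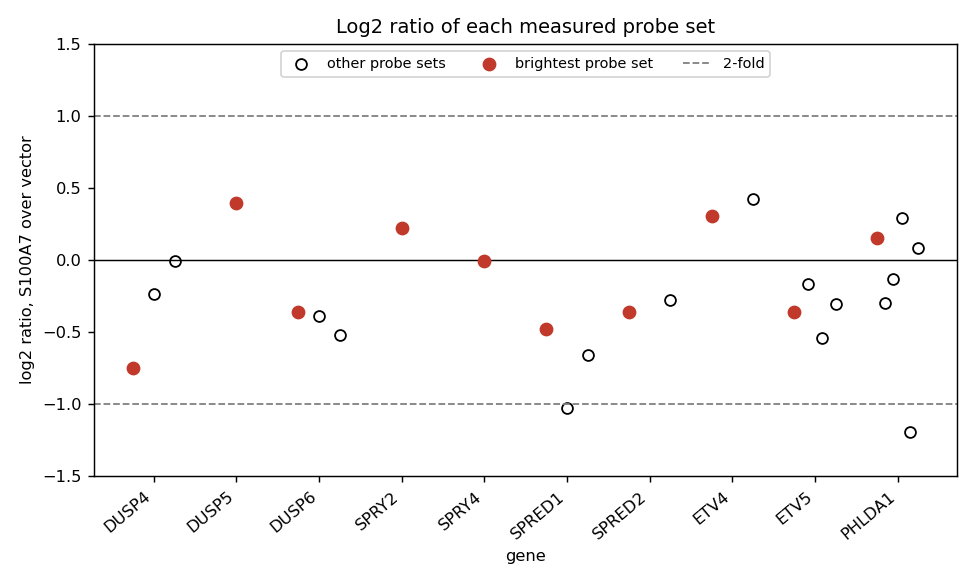
Log2 ratio (vertical axis, S100A7 over vector) of each measured probe set by gene (horizontal axis), with the brightest in red, the others open and dashed lines at 2-fold. DUSP6, SPRED1, SPRED2 and ETV5 lie wholly below 0 and ETV4 wholly above it, while the 6 probe sets of PHLDA1 run from -1.19 to 0.29.

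By role, 5 of the 7 inhibitors of the pathway (DUSP4, DUSP6, SPRY4, SPRED1 and SPRED2) had a log2 ratio below 0 and 2 (DUSP5 and SPRY2) above it, with a median of -0.36. Of all measured genes, 54.2% were below 0 and 45.8% above it. Of the 3 outputs, ETV4 and PHLDA1 were above 0 and ETV5 below it, with a median of 0.15. SPRY4 and PHLDA1 are placed by values close to 0, and both changed sign under at least 1 of the other settings tried: SPRY4 had 0.04 with median centring of the arrays, and PHLDA1 had -0.02 as the median of its probe sets. With the median of chromosomal neighbours subtracted, SPRY4 was at 0.17 and ETV4 at -0.09, so each changed sides, and DUSP6 was at -0.04. A difference between the roles was not tested.

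Genes that lie next to each other on a chromosome also moved together, and several of the 10 followed their neighbours. The median over the 40 measured genes nearest to it, 20 on each side, was -0.39 around SPRED1 on chromosome 15, where 33 of the 40 were lower, and 4.60% of genes had a neighbourhood that low or lower. It was -0.32 around DUSP6 on chromosome 12, with 28 of 40 lower, and 0.39 around ETV4 on chromosome 17, with 31 of 40 higher, where 98.1% of genes had a neighbourhood at or below it. After subtraction of these medians SPRED1 was at -0.09, DUSP6 at -0.04 and ETV4 at -0.09, the last with its sign turned. For DUSP4 on chromosome 8 the neighbours had a median of 0.11 and the difference grew to -0.86, and for DUSP5 on chromosome 10 they had 0.13 and the difference was 0.27. SPRED2 kept -0.20 and ETV5 -0.19, SPRY2 was at 0.22, PHLDA1 at 0.22 and SPRY4 at 0.17.

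The gene and its neighbours had the same sign for 8 of the 10 genes, against 65.9% of the 12662 genes with neighbours. Among the 8, SPRY4 itself was at -0.005, and the neighbours of SPRY2 had a median of 0.002, with 20 of 40 higher. Across the 10 genes Pearson's r between the gene's value and its neighbours' median was 0.52, and across all genes 0.38, all read from the same 2 arrays and not independent. What sets the level of a neighbourhood was not tested. With the subtraction, the distance between ETV4 and ETV5 is that of -0.09 and -0.19, and the median of the 10 genes was -0.06.

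**Figure D4:**
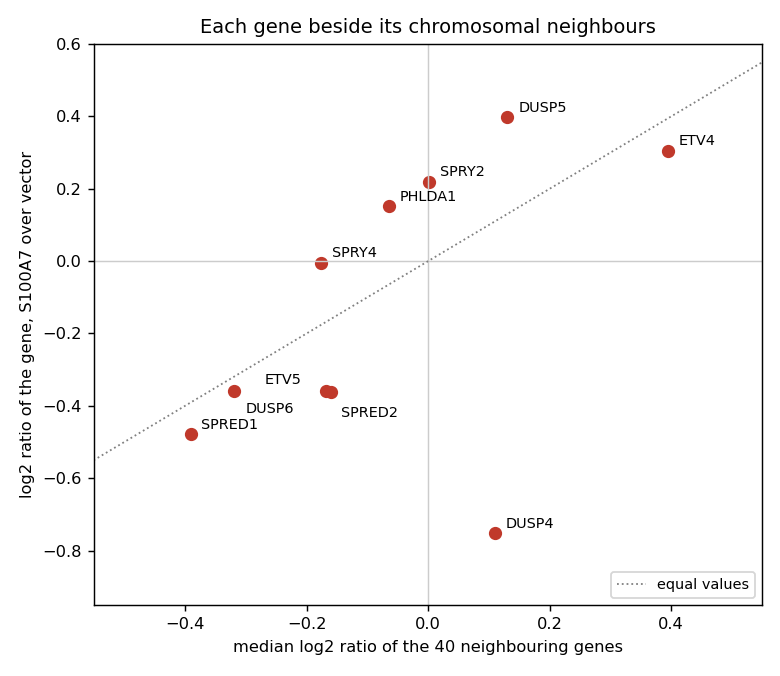
Log2 ratio of each of the 10 genes (vertical axis, S100A7 over vector) against the median over the 40 measured genes nearest to it along the chromosome (horizontal axis, log2 ratio), with a dotted line where both are equal. SPRED1, DUSP6 and ETV4 lie close to the line, and DUSP4 lies far below it at -0.75 with neighbours at 0.11.

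The rest of the pathway was described by 5 further lists. Of 23 genes of the RAS-ERK cascade and its adaptors, 16 were measured, with 10 above 0, 6 below it and a median of 0.13. Of all measured genes, 45.8% were above 0 and 54.2% below it. At least 2-fold apart were 0 of the 16, against 4.05% of all genes, and at least 1.5-fold apart was 1, against 18.2%. That gene was MAP2K1, which encodes MEK1, the kinase that activates ERK. It read 4457 in S100A7 cells and 7141 in vector cells, 1.60-fold lower on 1 probe set. MAPK3, which encodes ERK1, read 574 in S100A7 cells and 740.04 in vector cells, a log2 ratio of -0.37. The 7 measured of 8 listed kinases activated by ERK, of the RSK, MSK and MNK families, had a median of 0.00. By the brightest probe set, 0 members were at least 1.5-fold apart in either direction, where 18.2% of all measured genes lay. Other probe sets went further: MKNK1 was at 0.54 with its other probe set at 1.33, and RPS6KA5 at 0.17 with its other at 0.64. The lowest value of any probe set in the list was -0.43, for MKNK2. Listed genes not counted as measured were below the floor or not analysed here.

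Other negative regulators of the pathway numbered 18 measured of 24, with 13 below 0, against 54.2% of all genes, 5 above it and a median of -0.09. SPRED3 was the 1 member at least 2-fold lower, against 2.25% of all genes, and 0 were higher by that much, against 1.8%. DUSP16, a phosphatase known mainly for acting on JNK, read 146 in S100A7 cells and 256 in vector cells, 1.76-fold lower, with its 3 probe sets from -1.25 to -0.54. LZTR1, an adaptor in the ubiquitination of RAS proteins, read 601 in S100A7 cells and 966 in vector cells, 1.61-fold lower on 1 probe set. Against these, DUSP10, a phosphatase of JNK and p38, read 1615.5 in S100A7 cells and 834 in vector cells, 1.94-fold higher, with its other probe set at 1.12 on the log2 scale.

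Other genes induced by ERK signalling had the lowest median of the lists, -0.36. Below 0 were 14 of the 23 measured genes and above it 9, beside 54.2% and 45.8% of all genes. The list was set with earlier results of these data known, so its low values are not an independent observation. At least 1.5-fold lower were 7 of the 23 and at least 1.5-fold higher 1, beside 10.0% and 8.12% of all genes. VGF, a neuropeptide precursor, read 66.2 in S100A7 cells, below the floor, and 219.6 in vector cells, at least 3.18-fold lower. TNC, a matrix glycoprotein, read 81.8 in S100A7 cells and 257 in vector cells, 3.15-fold lower on 1 probe set. TRIB1, a pseudokinase that guides protein degradation, read 233 in S100A7 cells and 654 in vector cells, 2.80-fold lower, though its other probe set was at -0.51 on the log2 scale. EGR1, an immediate-early transcription factor, was the fourth at least 2-fold lower, at 827 in S100A7 cells and 1759.5 in vector cells, and was chosen after its value was seen. Of all measured genes, 2.25% were at least 2-fold lower. IER3, an early response gene, was the single member at least 2-fold higher, against 1.8% of all genes. CCND1, EPHA2 and EPHA4 stand beside several of these 10 in MEK signatures, and the first 2 were less than 1.5-fold apart. CCND1, which encodes cyclin D1, read 5060 in S100A7 cells and 4011 in vector cells, a log2 ratio of 0.33, with its other probe set also at 0.33. EPHA2, an ephrin receptor, had a log2 ratio of 0.07. EPHA4, a further ephrin receptor, was below the floor on both arrays.

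The other ETS factors and CIC, 18 measured of 23, were divided evenly, with 9 above 0, against 45.8% of all genes, 9 below it and a median of -0.03. At least 1.5-fold higher were 5, against 8.12% of all genes, and 1 was at least 1.5-fold lower, against 10.0%. FLI1, 1 of the 5, read 121 in S100A7 cells and 58.8 in vector cells, the latter below the floor. Its 3 probe sets ran from -0.006 to 0.77, and it is named for that low value. ELF3, an epithelial ETS factor, read 164 in S100A7 cells and 75.6 in vector cells, close to the floor. ELF2 read 1284 in S100A7 cells and 655 in vector cells, 1.96-fold higher, while another of its 3 probe sets was at -0.24 on the log2 scale, and ELF1, a factor of the same subfamily, was 1.76-fold higher (773 in S100A7 cells, 440.01 in vector cells). ELK1, a factor that ERK phosphorylates directly, read 1632 in S100A7 cells and 2573 in vector cells, 1.58-fold lower, with its 3 probe sets from -0.82 to -0.15. ETV1 belongs to both of the last 2 lists.

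**Figure D5:**
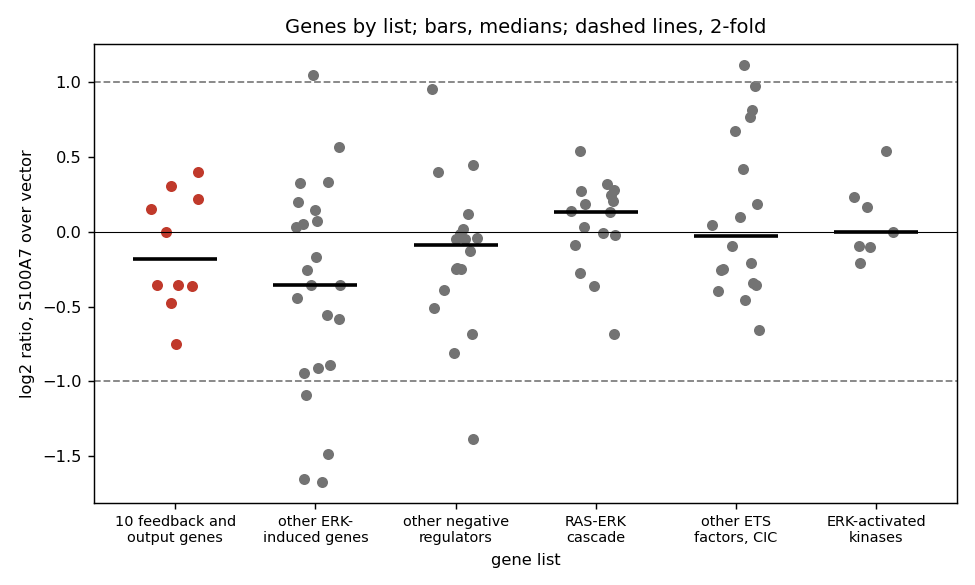
Log2 ratio (vertical axis, S100A7 over vector) of every measured gene of the 6 lists (horizontal axis), with black bars at the medians and dashed lines at 2-fold. The 10 feedback and output genes, in red, stay within 2-fold around a median of -0.18, while the other ERK-induced genes reach -1.67 around a median of -0.36. All lists were set with earlier results of these data known.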

How the data were processed

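Each array's deposited values are linear intensities of its 54675 probe sets, which the authors made with MAS5 per the submitters' processing notes; the sources used here do not give its version or scaling target. With 2% trimmed from either end, both arrays averaged 500.1, and the values were used as deposited. The platform's annotation named the probe sets. Entrez identifiers then linked 41037 of the 41091 that list 1 gene to a GRCh38.p14 gene table for current symbols and gene order, and promoter windows came from RefSeq on the same assembly. Values under an array's 50th percentile were raised to it. Values were computed in Python 3.11.15 with pandas 2.3.3 and numpy 2.4.6, and the counting step was tested on simulated data. The members and lists were chosen with earlier results of these data known, and the sequence motifs after the promoter windows had been seen. Named were the 10 members, S100A7, from each list up to 3 genes highest and 3 lowest past 1.5-fold, and some genes of the cascade and MEK signatures whatever their value. Samples were grouped by their titles, 1 array each, and no test was possible. Columns of values left unused numbered 0.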

Additional observations from a re-analysis of the deposited data

How the results depend on the processing

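No paired analysis was possible because each group has 1 array. The count of 0 genes at least 2-fold apart was also 0 with quantile normalization, the median over probe sets and subtraction of chromosomal neighbours. Leaving out _x_at and _s_at probe sets, which drops SPRY4, gave 0 too. So did adding 32 to every value in place of the floor, but that can only shrink a ratio. Median centring shifted all 10 genes by the same small amount, DUSP4 to -0.71, and could not bring any of them to 2-fold. Floors at other percentiles (30 and 70), no floor and no filter could not move any of the 10 genes, which lie above these floors on both arrays, and a 3-fold threshold could not raise a count of 0. At 1.5-fold the count was 1, DUSP4, by construction of the lower threshold. The median of the 10 genes stayed below 0, from -0.24 to -0.06, and the number above 0 ran from 3 to 5. Of 99 single-gene values, 50 equalled the reported one, 40 of them under the floor and filter settings. Of the 49 that differed from it, 45 did so by less than the 0.36 between probe sets of a gene. The other 4 were DUSP4 at -0.24 by the median over probe sets and without the shared suffixes, and SPRED1 and ETV4, both at -0.09 after subtracting neighbours. The spread of 0.36 exceeds the size of most of the 10 reported log2 ratios, so a value could fall to 0 and stay within it. DUSP6 nearly did so, going from -0.36 to -0.04 after subtracting neighbours. SPRY4, ETV4 and PHLDA1 changed sign under at least 1 setting and the other 7 under none. All differences were under 2-fold except those of single probe sets, and with 1 array per group they cannot be set against culture-to-culture error.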

Other observations

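Some further genes of the pathway had probe sets that moved alike and were picked after their values were seen. RRAS2, a RAS-related GTPase, read 3499 in S100A7 cells and 2409 in vector cells, with log2 ratios from 0.48 to 0.54 on its 3 probe sets. PEA15, a protein that holds ERK in the cytoplasm, read 13078 in S100A7 cells and 9909.9 in vector cells, and its 2 probe sets were at 0.37 and 0.40. PHLDA2, the relative of PHLDA1, read 4894 in S100A7 cells and 9197 in vector cells, and its 2 probe sets were at -0.91 and -0.75. PLAUR, the urokinase receptor, read 4300.1 in S100A7 cells and 8260.3 in vector cells, and its 3 probe sets ran from -1.24 to -0.94.

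DUSP1, an early response phosphatase of several MAP kinases, gave the opposite case: its brightest probe set was at -0.13 on the log2 scale and another of its 3 at 1.19.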
